A study of Mus musculus with 2 samples.

Results

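NANOG peaks in intergenic DNA at a middle distance from genes were examined in mouse embryonic stem cells. Chromatin immunoprecipitation followed by sequencing (ChIP-seq) with an antibody to NANOG had been done on 2 biological replicates of E14TG2a.4, a male line of strain 129/Ola with a labelled age of 3.5 days. The labels name no treatment and only 1 line, so there is 1 group and no contrast between conditions. The peaks described here, called members below, are those of the authors' optimal set on genome build mm10 whose summit lay outside every protein-coding gene and more than 10 kb, but at most 100 kb, from the nearest protein-coding transcription start site (TSS). There were 3841 members among 15852 optimal peaks on chromosomes 1 to 19 and X, or 24.2% (exact 95% Clopper-Pearson interval 23.6 to 24.9). The choice among optimal peaks used position alone, and not signal, replicate support or membership of the authors' stricter conservative set.

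NANOG is a homeodomain transcription factor that acts with OCT4 and SOX2 in the regulatory network of pluripotent cells. Much of its binding lies away from promoters, at enhancers, which are stretches of DNA that can raise the transcription of a gene over a distance. The nearest gene is a name for a position here: which gene an intergenic site acts on was not measured, and neither was transcription. The signal of a peak is the authors' caller statistic, whose scale is not stated, and it serves here to order and describe the regions of 1 list. Read depth per replicate is unknown, and the list files hold no expression values against which the labelled cell type could be checked. Intervals cover counting error only, and peaks are not replicates.

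Sequences at the centres of 8 peaks show the motifs counted further on, and were chosen because they hold one. Such a window was found for 69 of the named genes, and 22 of these hold 1 or more of the motifs that were more frequent at peak centres while 47 hold none. Among genes of the 20 highest members, 8 of 16 windows hold none, that of the strongest member, near Kdm5b, included. The same count was not made over all mm9 peak centres, so these counts only describe the windows. The sequences come from the mm9 reference genome, because mm10 sequence between genes was not used here, and each is the 50 bp to each side of the midpoint of an mm9 series-level peak on the same side of the same gene and within 1 kb of the member's distance from it. The first was taken upstream of Slain2, a microtubule regulator (mm9 chr5:73293682-73293782), and the next upstream of Dusp4, a MAP kinase phosphatase (chr8:35795837-35795937); both hold the octamer ATGCAAAT bound by OCT factors. The window upstream of Coch (chr12:52622678-52622778) holds the SOX site CATTGTT, and that downstream of Tgif1 (chr17:71177770-71177870), a homeobox corepressor of TGF-beta signalling, holds the ESRRB site CAAGGTCA. The NANOG-type homeodomain site TAATGG occurs downstream of Sall1 (chr8:91527510-91527610), a zinc-finger factor, and downstream of Chic2 (chr5:75349145-75349245), where the ZIC site CAGCAGG is also present. The window downstream of 2610301B20Rik (chr4:10859567-10859667) holds the ZIC site more than once, and that upstream of Klf9 (chr19:23169580-23169680) holds the TEAD site GGAATG. At Slain2 this TEAD site directly follows the octamer, so the capitals run through both. Capitals mark these motifs on either strand, and every sequence is the plus strand of the C57BL/6J reference, not of the 129/Ola line.
Slain2: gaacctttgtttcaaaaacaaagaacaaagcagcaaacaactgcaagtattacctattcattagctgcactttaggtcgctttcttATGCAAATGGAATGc
Dusp4: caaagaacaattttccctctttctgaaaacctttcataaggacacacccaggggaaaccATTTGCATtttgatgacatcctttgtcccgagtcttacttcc
Coch: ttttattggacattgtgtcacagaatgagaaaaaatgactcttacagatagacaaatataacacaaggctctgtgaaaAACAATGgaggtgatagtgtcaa
Tgif1: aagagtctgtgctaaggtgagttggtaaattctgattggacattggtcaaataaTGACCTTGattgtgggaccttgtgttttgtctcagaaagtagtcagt
Sall1: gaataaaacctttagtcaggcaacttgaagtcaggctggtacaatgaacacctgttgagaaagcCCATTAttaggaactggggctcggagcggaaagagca
Chic2: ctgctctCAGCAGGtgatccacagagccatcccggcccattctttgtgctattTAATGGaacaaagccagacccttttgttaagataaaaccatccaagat
2610301B20Rik: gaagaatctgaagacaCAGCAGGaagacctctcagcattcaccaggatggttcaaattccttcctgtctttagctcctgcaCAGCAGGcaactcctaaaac
Klf9: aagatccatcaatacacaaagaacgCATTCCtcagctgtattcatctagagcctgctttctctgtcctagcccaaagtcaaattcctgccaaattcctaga

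A few members could be read on mm10 itself, because their summit lay in the promoter window (250 bp before to 50 bp after the start) of a long noncoding RNA gene in the RefSeq promoter table of GRCm38. There were 25 such members, of which 16 were in the conservative set and 14 were supported by both replicates. Over all members the shares were 58.7% and 51.9%, and over all optimal peaks 56.7% and 50.4%. Of the 25, 13 held 1 or more of the motifs that were more frequent at the mm9 peak centres. How many of all peak centres hold any of these motifs was not counted. The printed stretches reach 50 bp to each side of the summit. At Gm10858, 51.5 kb upstream of Gtf3a, the member had signal 76.1 (mm10 chr5:146897133-146897233), with 52.4 in replicate 1 and 20.2 in replicate 2, and the stretch holds the octamer and the homeodomain core TAATTA. At Gm34098 (chr1:80236276-80236376), 22.1 kb upstream of Fam124b, the signal was 86.6, and the NANOG-type, TEAD and ZIC sites stand close together. At Platr22 (chr1:136696117-136696217), 71.3 kb downstream of Zfp281, the signal was 44.3, and the stretch holds TEAD and ZIC sites. At Gm32796 (chr16:29972733-29972833), 92.6 kb upstream of Hes1, an effector of Notch signalling, the signal was 35.0, and the stretch holds a SOX site. Each is given on the plus strand with motifs in capitals.
Gm10858: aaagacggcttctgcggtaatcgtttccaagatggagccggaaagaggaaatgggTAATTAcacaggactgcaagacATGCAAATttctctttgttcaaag
Gm34098: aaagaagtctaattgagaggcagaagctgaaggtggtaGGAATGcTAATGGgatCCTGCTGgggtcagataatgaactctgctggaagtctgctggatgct
Platr22: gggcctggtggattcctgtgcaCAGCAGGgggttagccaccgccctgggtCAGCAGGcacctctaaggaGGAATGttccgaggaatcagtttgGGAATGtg
Gm32796: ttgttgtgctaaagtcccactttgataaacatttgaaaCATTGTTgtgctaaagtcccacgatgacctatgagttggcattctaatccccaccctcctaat

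The strongest members stood near genes of very different kinds and were high in each replicate. Signals of members ran from 7.36 to 675.8, with a median of 40.8 and quartiles of 27.4 and 69.8. The highest, 24.9 kb upstream of the H3K4 demethylase gene Kdm5b, had a signal of 380.2 in replicate 1, where it ranked 2 among all regions, and of 300.3 in replicate 2, where it ranked 1. The member 46.1 kb upstream of Klf9, a zinc-finger factor, ranked 15 in replicate 1 (signal 307.1) and 2 in replicate 2 (signal 266.9). Both peaks were near the head of both lists, and both had the lower signal in replicate 2.

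Several strong members lay just past the 10 kb bound. The member 10.8 kb upstream of Zbtb44 (chr9:31018682-31019113) had signal 492.0, with 296.6 in replicate 1 and 191.6 in replicate 2. The member 11.9 kb upstream of Slain2 (chr5:72902283-72902689) had signal 462.5, with 298.2 and 169.0 in the replicates. Others were far away: the member of Ccnd2, which encodes a G1 cyclin, lay 98.2 kb upstream (chr6:127250030-127250527, signal 458.8, with 294.6 and 164.6 in the replicates), and that of Coch lay 71.5 kb upstream (signal 487.0, with 300.6 and 186.5). The rank of a single site could be better in either replicate, also where replicate 1 had the higher signal. The member 31.1 kb upstream of Igfbp2, which encodes an insulin-like growth factor binding protein, ranked 92 in replicate 1 (247.1) and 11 in replicate 2 (188.0). In contrast, the member 20.1 kb upstream of Foxd3, a forkhead factor of the epiblast, ranked 12 in replicate 1 (311.3) and 55 in replicate 2 (131.7). All 20 highest members, with signals of 376.0 or more, were conservative and supported by both replicates. Of these 20, 12 lay upstream of the nearest TSS and 6 lay within 20 kb of it, beside 69.2% and 24.3% of all members. All 144 members with a signal of at least 200 were also conservative and supported by both replicates. Such signals were found in 3.75% of members, beside 3.55% of all optimal peaks. Both measures derive from the signals of the replicates, so full counts at this strength are in part built in. The same count was not made for other optimal peaks of that strength.

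The remaining members among the 20 highest were also nearest to genes of unlike function. The member 43.1 kb upstream of Vwa3b had signal 528.8, with 328.8 in replicate 1 and 199.2 in replicate 2, and a second one of signal 98.9 lay 41.2 kb upstream. Crygs, which encodes a lens crystallin, had its member 10.8 kb downstream (467.8; 298.5 and 168.9), and Oprd1, an opioid receptor, had its member 10.9 kb upstream (466.0; 292.7 and 173.4). The members of Efr3a, a scaffold of a lipid kinase complex (459.5; 301.8 and 162.7), and of 2610301B20Rik (454.3; 296.3 and 158.5) were nearly as high. Stoml1, a stomatin-like protein, followed at 426.1 (288.0 and 137.4). The members of Prf1, which encodes perforin (391.5; 255.6 and 136.6), Etaa1, an activator of the ATR kinase (390.2; 279.6 and 108.7), Chic2 (387.0; 262.9 and 121.1), Scap, a chaperone of sterol-regulated factors (377.1; 260.2 and 116.6), and Apol7a (376.0; 244.1 and 127.8) closed this group. In each of these the replicate 1 signal was the higher of the pair.

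Replicate support parted the members into a strong, shared portion and a weaker portion seen mainly in replicate 1. The shares were close to those of all optimal peaks. A member counted as supported by a replicate when it shared at least 1 bp with one of as many top regions of that replicate's relaxed list as there are peaks in the optimal set. By this measure 1993 members (51.9%, 50.3 to 53.5) had support from both replicates, beside 50.4% of all optimal peaks. Their median signal was 66.8. A further 1339 members (34.9%) were supported by replicate 1 alone, with a median signal of 31.5. Replicate 2 alone supported 155 (4.04%), and neither replicate supported 354 (9.22%). Over all optimal peaks these 3 shares were 36.0%, 4.18% and 9.47%. Some region of the whole relaxed list was found for 3837 members in replicate 1 and for 3268 (85.1%) in replicate 2. For other optimal peaks the share in replicate 2 was 84.9%. The median signal of the overlapping regions was 32.1 in replicate 1 and 11.7 in replicate 2, beside 31.9 and 11.2 for other optimal peaks. Among 3264 members with a region in both, 64 had the higher signal in replicate 2. The optimal set was derived from these same lists, so that high support is in part built in.

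**Figure D1:**
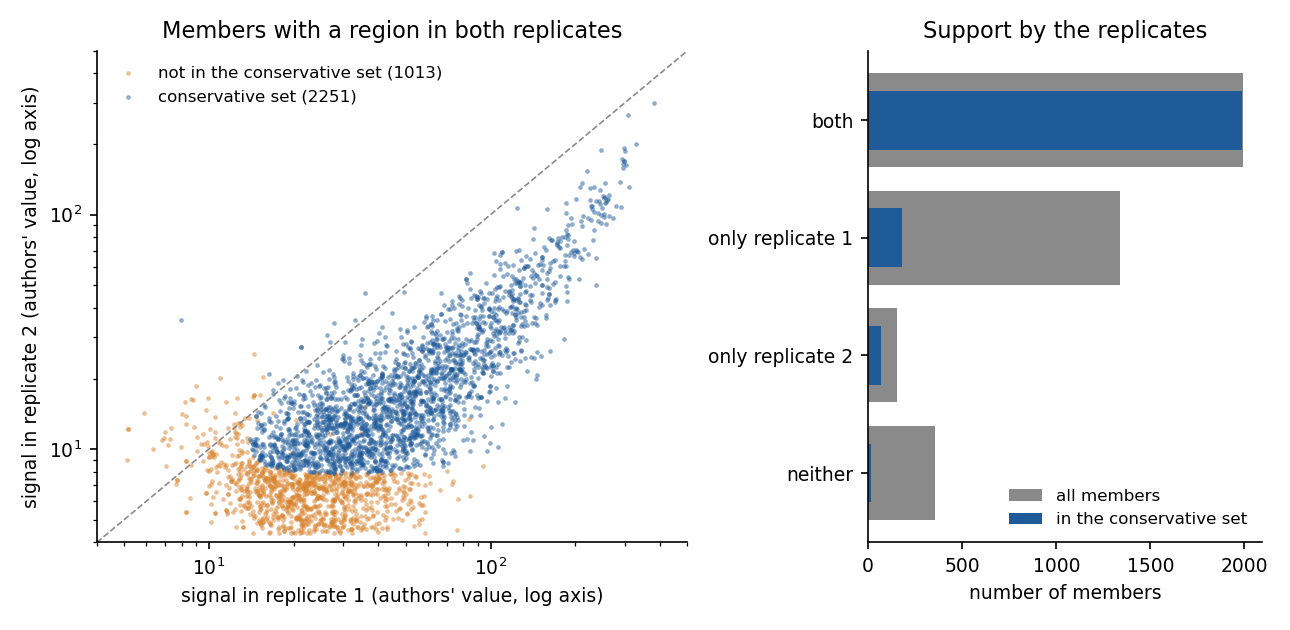
Left, the authors' signal of the overlapping region in replicate 1 (x, log axis) and replicate 2 (y, log axis) for each of 3264 members with a region in both, coloured by membership of the conservative set, with a dashed line of equal signal. Right, the number of members by replicate support (grey) and the number of these in the conservative set (blue); 1986 of the 1993 members supported by both replicates are in the conservative set.

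Membership of the conservative set was read beside the signals of both replicates, from which the authors derived it. Of members supported by both replicates, 1986 (99.6%) were in the conservative set, against 182 (13.6%) of those supported by replicate 1 alone, 69 (44.5%) of those supported by replicate 2 alone and 16 (4.52%) of those supported by neither. The 2251 conservative members with a region in both replicates had a signal of at least 7.97 in replicate 1 and at least 7.92 in replicate 2. The central 90% of their signals (5th to 95th percentile) ran from 18.1 to 163.6 in replicate 1 and from 8.62 to 63.8 in replicate 2. For the 1013 members outside the conservative set with a region in both, it ran from 10.2 to 48.6 and from 4.64 to 11.2. The ranges overlap in either replicate alone, but the signals of both replicates together parted the groups at the high and the low end. Of 1870 members with at least 15 in replicate 1 and at least 10 in replicate 2, 1861 were conservative. Of 646 with at least 15 in replicate 1 and under 7.5 in replicate 2, 0 were. The rest of the 3264 members with a region in both lay outside these cuts. They included many conservative and many other members, so the groups were not parted there. Single members still went both ways. The member 13.7 kb downstream of Naprt (chr15:75880657-75880825), a gene of NAD synthesis, had signal 109.4 and was the highest one outside the conservative set, with 93.7 in replicate 1 and 8.51 in replicate 2. The member 77.2 kb downstream of Snap25, a synaptic fusion protein, had signal 88.2, with 81.9 in replicate 1 and no region in replicate 2, and was not conservative. In contrast, the member 42.7 kb upstream of Ccnh, a cyclin gene, had signal 95.6, with 94.6 in replicate 1 and no region in replicate 2, and was conservative. The member 86.6 kb downstream of Phlda1 had 83.7 and 13.4 and was not conservative. The member 64.3 kb upstream of Aldh1a3, an enzyme of retinoic acid synthesis, had the highest signal (38.6) of those supported by replicate 2 alone, with 16.4 in replicate 1 and 20.8 in replicate 2, and was conservative. Next in that group were the members of Ier5 (14.5 and 25.6) and of the VEGF receptor gene Flt1 (15.5 and 20.2), neither of which was conservative. Naprt, Snap25, Ccnh, Phlda1, Aldh1a3, Ier5 and Flt1 were named after their values were seen.

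Compared with optimal peaks elsewhere, the members were slightly more often conservative. Of the 3841 members, 2253 (58.7%, 57.1 to 60.2) overlapped a conservative peak, against 6735 of 12011 other optimal peaks (56.1%, 55.2 to 57.0) and 56.7% of all optimal peaks. The odds ratio was 1.11 (1.03 to 1.197, two-sided Fisher's exact test, p = 0.00502, Benjamini-Hochberg adjusted exact p = 0.0142 over 17 tests). The difference was largest against promoter peaks, which lay within 1 kb of a TSS: of 509 such peaks, 46.2% were conservative (odds ratio 1.65, 1.37 to 2.00, adjusted exact p = 6.31e-07). Against 3133 intergenic peaks more than 100 kb from a TSS, of which 54.8% were conservative, the odds ratio was 1.17 (1.06 to 1.29, adjusted exact p = 0.00453). No difference passed the threshold of 0.05 against 2745 proximal peaks at 1 to 10 kb (57.3%, odds ratio 1.06, 0.955 to 1.17, adjusted exact p = 0.376) or against 5624 peaks inside genes and more than 10 kb from a TSS (57.1%, odds ratio 1.07, 0.982 to 1.16, adjusted exact p = 0.216).

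Support by both replicates was compared in the same way. It was found for 51.9% of members and 49.9% of other optimal peaks (odds ratio 1.08, 1.01 to 1.16, Fisher's exact test, p = 0.0346, adjusted exact p = 0.0653), a difference that did not pass the adjusted threshold. Members exceeded promoter peaks (39.7%, odds ratio 1.64, adjusted exact p = 1.06e-06) and intergenic peaks beyond 100 kb (48.8%, odds ratio 1.13, adjusted exact p = 0.0260). The signal was above the median of optimal peaks, 40.1, in 50.8% of members and 49.7% of other peaks (odds ratio 1.04, 0.970 to 1.12, adjusted exact p = 0.355), against 37.1% of promoter peaks (odds ratio 1.75, 1.44 to 2.13, adjusted exact p = 4.92e-08). Against the other 3 classes the signal comparison did not pass the threshold, with odds ratios of 0.974 to 1.04 and adjusted exact p-values of 0.434 to 0.634. When optimal peaks were ranked by signal and divided into 10 groups of equal size, the share of members stayed between 23.1% and 25.7%. Median width was 364 bp for members and for other optimal peaks alike.

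**Figure D2:**
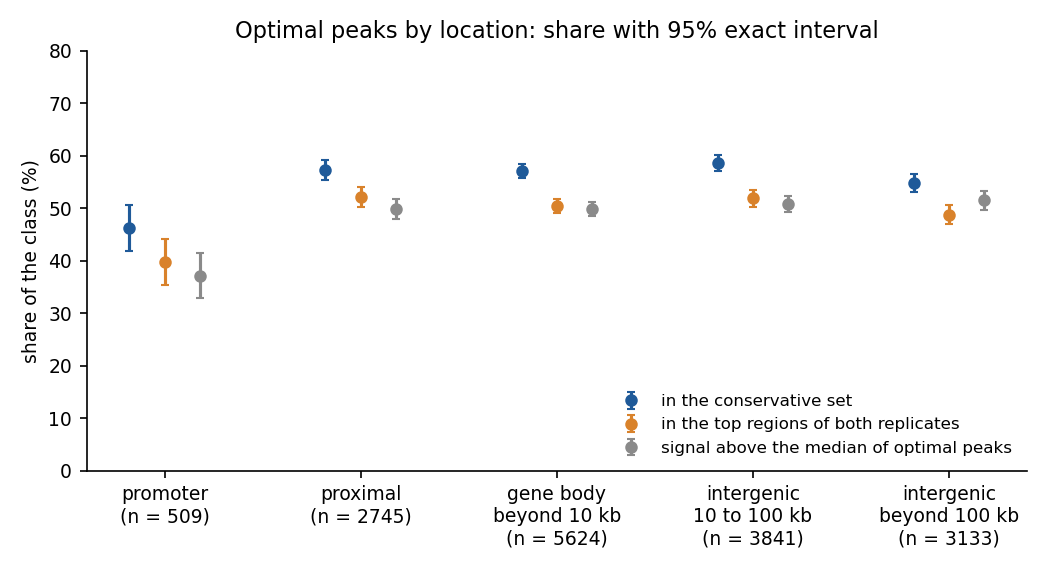
Share of each location class of optimal peaks (percent, with exact 95% intervals) that was in the conservative set (blue), in the top regions of both replicates (orange) or above the median signal of optimal peaks (grey). Promoter peaks are lowest on all 3 measures, and the other 4 classes lie within a few percentage points of each other.

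Members were more frequent among optimal peaks than among weak regions. Of the lowest-signal 99974 regions of the pooled relaxed list on the same chromosomes, 21.96% fell in the class, against 24.2% of optimal peaks (odds ratio 1.14, 1.09 to 1.18, Fisher's exact test, adjusted exact p = 4.16e-09). The median distance from a member to its nearest TSS was 35.6 kb (quartiles 20.3 and 59.0). The bin from 10 to 20 kb held 935 members (24.3%), beside 23.3% of the 21952 weak regions of the class, and the bin from 90 to 100 kb held 209 (5.44%), beside 5.28%. The conservative share was 55.0% to 62.3% over the 9 bins of 10 kb, which is given with no test. Members lay upstream of the nearest TSS in 69.2% (67.7 to 70.6) of cases and weak regions of the class in 67.4% (odds ratio 1.08, 1.01 to 1.17, adjusted exact p = 0.0653), so the excess did not pass the threshold. The DNA just downstream of a TSS is the gene itself, which the rule leaves out. The part of this in the upstream shares was not tested. Chromosome X had the highest share of members among its optimal peaks, 30.2% (25.8 to 34.9), but 30.0% of its weak regions were in the class too.

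**Figure D3:**
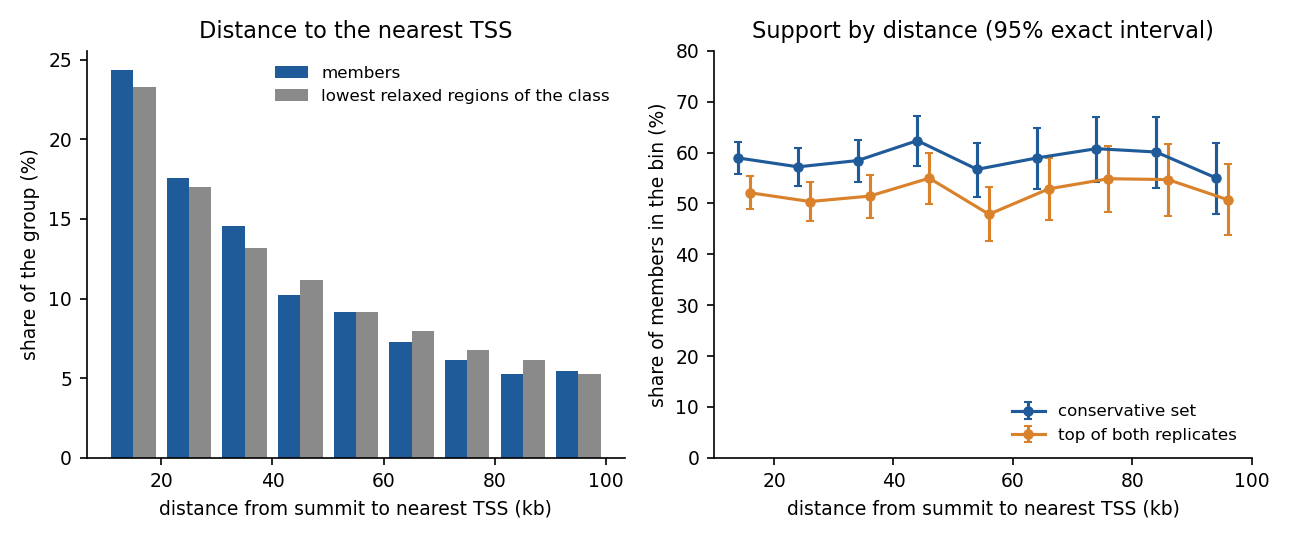
Left, share of members (blue) and of the lowest-signal relaxed regions of the class (grey) by distance to the nearest TSS in bins of 10 kb. Right, share of the members in each bin that was conservative (blue) or in the top regions of both replicates (orange), with exact 95% intervals, which overlap across all 9 bins for either measure.

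The peaks next to the bounds are given as a description. Just inside 10 kb lay the members of Trpc6 (10.008 kb, signal 38.6) and Emp1 (10.012 kb, signal 37.8), and just outside lay peaks near Txnrd1 (9.985 kb, signal 52.3) and Fgf4 (9.982 kb, signal 47.2), all 4 conservative. Just inside 100 kb lay the members of Sec61g (99.738 kb, signal 65.5) and Zfp236 (99.686 kb, signal 19.4), and just outside lay peaks near Klf3 (100.137 kb, signal 25.2) and Alg10b (100.187 kb, signal 17.1).

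The members were spread over many genes, and a small group of genes held several. Of 21318 protein-coding genes tested, 2528 (11.9%) were the nearest gene of at least 1 member, 835 (3.92%) of at least 2 and 290 (1.36%) of at least 3. When the rule was applied to the conservative set alone, 450 genes had at least 2 and 111 at least 3. The 290 genes held 1058 members, or 27.5% of all. Conservative shares were 56.3% (53.9 to 58.7) for members that were alone at their gene, 60.3% (57.3 to 63.2) at genes with 2 and 60.7% (57.7 to 63.6) at genes with 3 or more, and the corresponding median signals were 41.0, 40.9 and 39.9. Genes differ in how much intergenic DNA they have for such peaks: the room, meaning the DNA that met the rule and had the gene as its nearest, had a median of 67 kb for genes with a member and 8 kb for all genes. Where overlapping regions with separate summits were joined, 3841 members became 3696 regions, and 771 genes had at least 2 and 255 at least 3. In these overlaps, the lower members had a median signal of 12.8 and the higher ones of 35.7.

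Sall1 and Klf5 held the most members, 9 each. The strongest member of Sall1 lay 40.5 kb downstream (chr8:89003468-89003863) with signal 398.0, at 289.4 in replicate 1 and 108.3 in replicate 2, and the remaining ones ran from 22.5 to 81.4. Only 3 of the 9 at Sall1 were conservative. Klf5, a factor of naive pluripotency, had no such dominant peak: its members ran from 20.1 to 97.5 over 88.8 kb on both sides, and 7 were conservative. Neither gene had an optimal peak within 10 kb of its TSS.

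Otx2, a homeobox factor that marks exit from the naive state, had 8 members with signals of 27.9 to 256.1, of which 6 were conservative. The strongest, 41.9 kb upstream (chr14:48709440-48709729), stood at 175.9 in replicate 1 and 76.9 in replicate 2. Tfap2c, a factor of trophectoderm and germ cells, also had 8, with its 2 highest on opposite sides, 73.5 kb downstream (signal 107.2) and 28.8 kb upstream (signal 100.1). Tbx3, a T-box factor of the naive network, had 8 members of which 2 were conservative, at signals of 88.1 and 78.3; the other 6 were at 41.3 or lower. The 8 members of Tle4, a Groucho corepressor, all lay upstream, and none exceeded 55.3. Rybp, a component of polycomb complexes, had 8, with signals of 8.84 to 132.8 and 5 conservative. Joining overlaps brought Rybp and Tbx3 to 7.

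Zfp281, a zinc-finger factor that partners with the pluripotency network, had 7 members, with its strongest 11.6 kb upstream (signal 173.3; 133.1 in replicate 1 and 41.4 in replicate 2). Tgif1 had 7, or 6 after joining, with signals of 210.2 at 24.7 kb downstream and 195.8 at 47.4 kb upstream for the highest pair. Sox2, an HMG-box factor and partner of OCT4, had 6. The strongest of them was also the farthest, 95.5 kb downstream (chr3:34745345-34745643), with signal 227.5, at 142.4 in replicate 1 and 87.4 in replicate 2. In all, 5 of the 6 at Sox2 were conservative. Klf9 had 6, all upstream. Its strongest was described above, and the others ran from 23.5 to 74.8. Slc38a11, an amino acid transporter gene, had 6, all upstream over 35.0 kb, with a highest signal of 116.4 and 5 conservative. Kif13b, which encodes a kinesin motor, had 6 upstream, with a highest signal of 88.6 at 10.1 kb. Egln3, an oxygen-sensing prolyl hydroxylase, had 6, with its highest (105.8) 92.7 kb downstream. Fam124b had 6, which joined to 4.

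**Figure D4:**
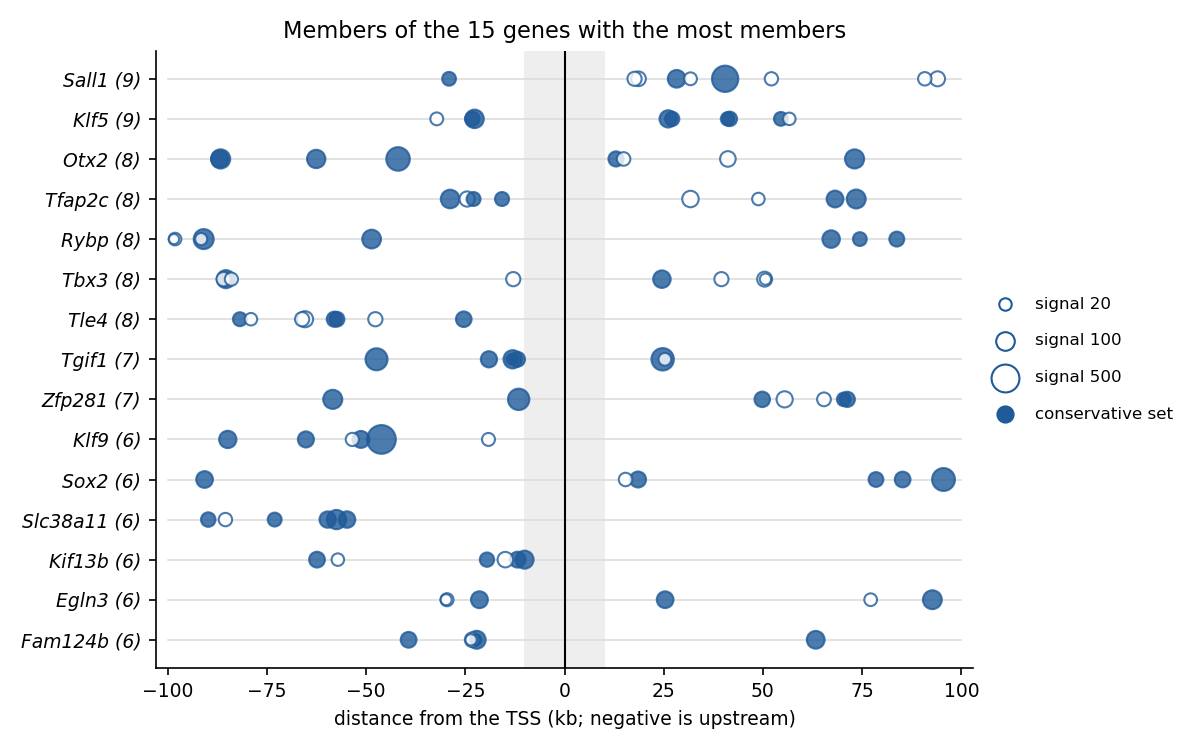
Members of the 15 genes with the most members (of 12 genes tied at 6, the 6 with the highest summed signal are shown), drawn at their distance from the TSS (x, kb, negative upstream; the grey band is the excluded 10 kb on each side). Circle area grows with the square root of the signal, filled circles are conservative and open ones are not; Sall1, Otx2, Tgif1, Klf9 and Sox2 each show members that stand out in size, while those of Tle4 are all small.

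Replicates differed in how many members they gave these genes. When the rule was applied to the top regions of replicate 1 alone, Tbx3 had 8 and Sall1 7, while replicate 2 alone gave 2 and 4. Otx2 had 8 and 7, Sox2 had 6 and 6, Tgif1 had 7 and 6, and Zfp281 had 7 and 6, so these genes kept nearly the same number in both. Of the 15 genes with the most members, 5 fell by over 1.5 times with replicate 2 alone and also in the conservative set: besides Tbx3 and Sall1, these were Tle4 (4 and 4), Tfap2c (5 and 5) and Fam124b (3 and 3). With replicate 1 alone, 1 did, Rybp, which had 4. Counts in the conservative set, here and below, apply the rule to that set's own peaks. They can differ from the number of members that overlap a conservative peak, as at Otx2 (8 beside 6). Bmp4, a BMP ligand, had 6 members in the optimal set but 3 in replicate 1 and 1 in replicate 2, its highest signal was 40.6, and joining overlaps brought the 6 to 4. Of all 2528 genes with a member, 1792 (70.9%) also had one in replicate 2 alone and 2324 (91.9%) in replicate 1 alone.

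Lists of genes by role, chosen with earlier results of these data known, were counted beside the 11.9% of all genes with a member, and they get no test. Of 30 genes of core and naive pluripotency, 14 had a member. Besides those above, Klf2 had 1 strong member 15.4 kb downstream (signal 312.3; 212.6 in replicate 1 and 98.9 in replicate 2), and Prdm14, a repressor of FGF signalling and DNA methylation genes, had 2, the higher 42.1 kb downstream (signal 307.1; 209.7 and 94.4). Klf4 had 5 members, all downstream, of which the 3 highest lay at 54.9 to 68.0 kb with signals of 141.5, 201.0 and 235.1. In replicate 1 they stood at 84.4, 144.8 and 168.7, and in replicate 2 at 56.2, 55.0 and 64.3. Nanog and Esrrb had no member. Of 19 genes of the primed and formative epiblast, 8 had a member, among them Foxd3 with 4, Zic5 with 3 (highest 244.3, 31.5 kb downstream) and the Nodal antagonist Lefty1 with 1, 10.1 kb upstream (signal 318.0; 221.6 and 96.3).

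Signalling pathways were also represented. In the WNT list 13 of 30 genes had a member, led by the secreted inhibitor Dkk1 (43.8 kb downstream, signal 357.4; 226.1 in replicate 1 and 129.9 in replicate 2), the ligand Wnt8a (13.1 kb downstream, signal 175.9), the agonist Rspo3 (59.3 kb upstream, signal 134.3) and the receptor Fzd10 (50.2 kb upstream, signal 133.3). In the FGF and MAPK list 8 of 24 did, led by Dusp4 (229.1) and followed by the feedback inhibitors Spry4 (149.2) and Spry2 (131.4) and the receptor Fgfr1 (131.2). In the LIF and JAK-STAT list 9 of 17 did, with the kinase Pim1 highest (39.5 kb upstream, 224.4; 162.6 and 62.0), then Socs2, a feedback inhibitor (138.3), Jak2 (92.2) and the receptor subunit Il6st (69.0). In the BMP and Nodal list 10 of 29 did, and after Lefty1 the highest was the inhibitory Smad6 (21.0 kb upstream, 194.9; 123.0 and 70.1).

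Chromatin and lineage genes followed. Of 32 polycomb and chromatin regulators 9 had a member, among them Jarid2 with 5 (highest 25.1 kb upstream, signal 263.3; 192.5 in replicate 1 and 69.3 in replicate 2) and Aebp2 with 3 (highest 181.3), both accessory subunits of polycomb repressive complex 2. Of 19 DNA methylation genes 2 had one, Gadd45a at 353.8 and Tet1, a methylcytosine dioxygenase, at 41.3. Of 37 SOX, forkhead and other lineage factors 18 had a member. The counts were 9 of 20 for neuroectoderm (Otx1 at 161.4, En2 at 142.5, Pax2 at 109.7 and Nkx6-1 at 64.8), 7 of 18 for primitive streak and mesoderm (Eomes at 103.1, Kdr at 88.1, Foxc1 at 69.2 and Msgn1 at 39.3), 5 of 18 for primitive endoderm, with none above 46.5, 5 of 16 for trophectoderm and 6 of 17 for germline genes. Of lists of genes with other roles, the counts were 3 of 25 cell cycle genes, 4 of 28 housekeeping genes, 6 of 25 adhesion and guidance genes (Epha7 at 110.0, Pcdh8 at 106.7, Efnb2 at 92.4 and Itga6 at 66.1), 2 of 29 liver, muscle and blood genes and 0 of 9 genes of the 2-cell-like state, most of which belong to multicopy families.

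The strength and the replicate support of these members also varied within the lists. In neuroectoderm, Otx1, 13.1 kb downstream, had 120.0 in replicate 1 and 43.6 in replicate 2, and En2, 33.6 kb downstream, had 104.9 and 37.3. In mesoderm, Eomes, a T-box factor of the streak, had 69.9 and 31.5 for a member 88.2 kb upstream, while Kdr, a VEGF receptor, had 80.1 and 10.9. In primitive endoderm 5 of 9 members (55.6%) were conservative, beside 58.7% of all members. The highest members of the laminin genes Lamc1 (37.5 and 6.99) and Lamb1 (32.1 and 7.24) and of the adaptor gene Dab2 (22.0 and 5.66) were not among the 5. All 3 of Foxa2, a forkhead factor, were conservative, with 21.1 and 9.59 for the highest. Among germline genes Kit, a receptor tyrosine kinase, had 4 members, with 78.8 and 21.6 for the highest, but 1 with replicate 2 alone and 1 in the conservative set, and Prdm1 had 2, with 54.3 and 17.2. Among lineage factors Foxo1 had 113.6 and 27.0, Klf6 had 94.1 and 44.2, and Tbx5 had 63.1 and 17.3. Housekeeping genes were not free of well supported members. Ywhaz, which encodes a 14-3-3 protein, had a member 12.4 kb upstream with 77.5 and 16.8, and the transferrin receptor gene Tfrc had one 41.4 kb upstream with 24.1 and 22.8. In the list of liver, muscle and blood genes, Cyp3a11, a liver cytochrome, had 77.2 and 21.9, and Ptprc, a leukocyte phosphatase, had 16.9 and 7.498.

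The lists differed in room as well as in their counts. Its median was 90 kb both for the SOX and forkhead list (18 of 37 genes with a member) and for the adhesion and guidance list (6 of 25), and 55 kb for the 2-cell-like list (0 of 9). It was 89 kb for the WNT list (13 of 30), 72 kb for neuroectoderm (9 of 20) and 50.5 kb for core and naive pluripotency (14 of 30). Less room was found for germline genes (17 kb, 6 of 17) and for polycomb and chromatin regulators (10.5 kb, 9 of 32). The same was so for cell cycle genes (20 kb, 3 of 25) and for liver, muscle and blood genes (11 kb, 2 of 29). Room was lowest for DNA methylation genes (8 kb, 2 of 19) and housekeeping genes (3 kb, 4 of 28). The part of room in the counts was not tested.

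Some genes with members had nearer NANOG peaks too. A promoter peak, within 1 kb of the TSS, was found for 3.01% (2.38 to 3.75) of genes with a member and 2.16% (1.95 to 2.37) of other genes, beside 2.26% of all genes. With the distance widened to 10 kb, the shares were 20.8% (19.2 to 22.4) and 11.4% (10.9 to 11.9). These shares are a description, with no test.

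Of the 3841 members, 928 (24.2%) had another member within 5 kb. With any other optimal peak counted, 955 members (24.9%, 23.5 to 26.3) had one within 5 kb, beside 23.8% (23.0 to 24.5) of other optimal peaks, which is given with no test. Overlapping regions with separate summits count as close here: 288 members share bases with another, and once these were joined, 667 of 3696 regions (18.05%) had another within 5 kb. Neighbouring members, with no gap above 12.493 kb, formed 589 runs of 2 or more. The run with most members held 8 over 24.3 kb between AU018091 and Nlrp12 on chromosome 7. Its 2 highest, at 24.1 kb (signal 182.6; 125.7 in replicate 1 and 58.2 in replicate 2) and 37.5 kb (182.5; 132.8 and 50.1) upstream of AU018091, were both conservative, and 1 of the other 6 was. The next run held 7 members over 19.4 kb upstream of the tubulin genes Tuba1a and Tuba1c on chromosome 15, and none of these was supported by both replicates. Their signals were 15.5 to 35.7, and 2 were conservative. A run of 6 at Sall1 spanned 34.5 kb with 2 conservative. A run of 6 between Fgfr1 and Gm39147 spanned 30.6 kb, and 5 of its members were conservative and supported by both replicates. Of 8 runs of 5, the one with the highest summed signal lay upstream of Ctla4, a receptor of T cells. It spanned 18.6 kb, and all 5 of its members were conservative at signals of 33.1 to 62.6. The other runs of 5 had 2 to 4 conservative members. Long runs thus differed in replicate support, from none of 7 at the tubulin genes to 5 of 6 near Fgfr1.

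Intergenic here means outside protein-coding genes, and 667 members (17.4%, 16.2 to 18.6) had a summit inside an annotated noncoding gene, beside 18.1% of weak regions of the class. A noncoding start lay within 1 kb of 102 members (2.66%, 2.17 to 3.21), beside 2.33% of weak regions. The strongest of these lay 278 bp from the start of Gm20609 and 25.1 kb from Ube2d1, with signal 369.7.

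Motifs were counted on mm9, in 3632 series-level mm9 peaks of 13340 that met the same rule on an mm9 annotation; they are a counterpart of the members and are not the same set. In the 50 bp to each side of the centre, 8 of 14 motifs were more frequent than 300 bp downstream of the same centres and 1 was less frequent (exact McNemar test, two-sided, adjusted over the 14). The ZIC site was in 10.2% (9.20 to 11.2) of centres and 3.28% of the windows downstream, 3.10 times as often (adjusted exact p = 2.43e-30). The octamer was in 2.29% and 0.606% (3.77 times, adjusted exact p = 4.53e-09), the SOX site in 4.90% and 1.65% (2.97 times, adjusted exact p = 3.66e-14) and the ESRRB site in 3.47% and 1.16% (3.00 times, adjusted exact p = 2.80e-10). The shorter OCT site ATGCAAA, which is part of the octamer, gave 4.85% and 2.15% (adjusted exact p = 2.13e-09).

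Homeodomain sites were also more frequent at the centre. The NANOG-type site TAATGG was in 6.42% of centres and 3.83% of windows downstream (1.68 times, adjusted exact p = 1.44e-06), and the core TAATTA in 5.42% and 3.25% (1.67 times, adjusted exact p = 1.42e-05). The TEAD site was in 8.31% and 6.31% (1.32 times, adjusted exact p = 0.00161), but in windows of 25 bp to each side it was 1.16 times as frequent and did not pass the threshold (adjusted exact p = 0.318). The E-box CACGTG was in 0.413% and 1.16% and so was less frequent at the centre (adjusted exact p = 0.000805). The KLF site GGGNGTGG, the GATA site AGATAA, the STAT site TTCCNGGAA, the AP-1 site TGANTCA and the CREB site TGACGTCA did not pass the threshold. None of the 14 differed from all 9708 other mm9 peaks after adjustment (two-sided Fisher's exact test): 1 had an unadjusted p under 0.05, the SOX site, which was in 4.90% of the counterpart and 6.15% of the others (p = 0.00603, adjusted exact p = 0.0844). Median GC content of the centres was 45.5% in both groups.

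**Figure D5:**
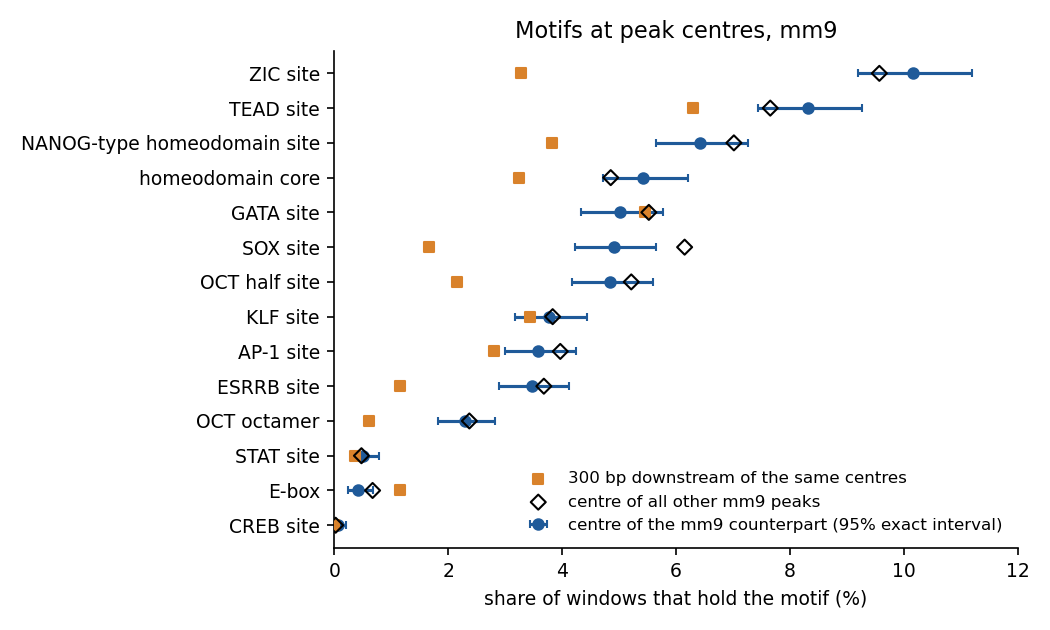
Share of windows of 50 bp to each side (x, percent) that hold each of 14 motifs at the centres of 3632 mm9 peaks of the same class (blue, exact 95% intervals), 300 bp downstream of these centres (orange squares) and at the centres of 9708 other mm9 peaks (open diamonds). The ZIC, SOX, ESRRB and octamer sites stand well right of their downstream windows, and the open diamonds lie near the blue points.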

How the data were processed

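NANOG ChIP-seq peak lists of 2 biological replicates on mm10 and mm9 were used; which aligner and caller were run, and at which IDR cut-off, is not given in the sources used here. Per the file headers and the field order of the peak type, the deposited mm10 lists hold a signal for each peak, its summit offset, a whole-number score and the q-value as −log10. The authors made relaxed lists of 300000 regions for each replicate and for their pool, and from these an optimal and a conservative set (9431 peaks). In the deposited mm9 lists each peak has an enrichment signal, the p-value as −log10, and an untransformed q-value; only the enrichment was used there, and the authors' reference for it is not stated. Scores, p-values and q-values of the authors were not used in a test.

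The 21900 protein-coding genes and their positions were those of a RefSeq table of GRCm38.p6. The TSS is the gene's 5′ end, with the strand from the GRCm38 promoter table (17492 genes) or by symbol from the mm9 annotation (4044); 364 genes without strand counted as gene bodies only. Coordinates are 1-based and were never converted between builds. Tests were two-sided Fisher's exact tests (17, Benjamini-Hochberg) and exact McNemar tests for 14 motifs, with SciPy 1.17.1, pandas 2.3.3 and statsmodels 0.14.6; calls needed an adjusted p below 0.05. The code was tested on simulated data. Named genes are those nearest to the 20 highest members, the 15 genes with most members and up to 4 per list with the highest member. Genes of the 5 runs with most members (ties by summed signal) and those at the distance bounds are also named. Others are marked in the text. Members and the 19 gene lists (423 genes) were chosen with earlier results of these data known.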

Additional observations from a re-analysis of the deposited data

How the results depend on the processing

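Of 36 recomputed values of the comparisons between groups of peaks and of the counts of called motifs and of genes with a member, 34 kept their direction and their side of the threshold (counts: within 1.5 times), and 2 passed the threshold where the value reported did not. Support by both replicates passed with bounds of 5 and 100 kb (odds ratio 1.10, adjusted exact p = 0.0164). The upstream share passed with the top regions of replicate 2 in place of the optimal set (1.10, adjusted exact p = 0.0305). Leaving out a replicate gave odds ratios of 1.05 to 1.07 for support, 1.11 to 1.14 for the class share, 1.07 to 1.10 for the upstream share and 2612 to 2672 genes with a member. Conservative membership kept its call in every alternative run, among them 50 strata of signal (1.15, 1.04 to 1.27). In windows of 25 bp to each side, the TEAD site lost its call (1.16 times, adjusted exact p = 0.318), so that 7 motifs in place of 8 were more frequent at the centre, and the KLF site, not called, turned to 0.971 times. The conservative set gave 450 genes with at least 2 members and 111 with at least 3, in place of 835 and 290. Of 95 named genes, 41 changed their number of members by over 1.5 times with replicate 2 alone, 14 with replicate 1 alone and 31 in the conservative set. Of the 19 lists, 5 did so in the conservative set (WNT from 13 genes with a member to 8, primitive streak and mesoderm from 7 to 4, primitive endoderm from 5 to 3, DNA methylation and the liver, muscle and blood list from 2 to 1). The last also went to 1 with either replicate alone, and cell cycle genes went from 3 to 5 with replicate 2 alone. Joining overlapping members, added after seeing the data, changed 3 named genes by as much: Ets2, Nkx6-1 and Rspo3, from 2 to 1.

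No paired analysis was possible because there is 1 group. Peaks of combined replicates carry no replicate error, read depth is unknown, and the control experiment that the labels name was not used here. Reads of the 129/Ola line were placed by the authors on the mm9 and mm10 references.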
